A study of Mus musculus with 12 samples.

Results

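The genes described here encode the machinery that builds and loads major histocompatibility complex (MHC) class I molecules in the mouse. They were taken by symbol from the annotated gene table, and all 10 were found among its 54232 genes. H2-K1 and H2-D1 encode the classical heavy chains and B2m the light chain. Tap1, Tap2 and Tapbp serve peptide transport and loading, Psmb8, Psmb9 and Psmb10 are the catalytic subunits of the immunoproteasome, and Nlrc5 is the transcriptional coactivator of class I genes. All 10 passed the filter on low counts that left 13279 genes for testing. They were selected by function and symbol, not by a threshold on their values.

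Poly(A) RNA was sequenced from immune cells of subcutaneous tumours grown from MC38, a mouse colon adenocarcinoma cell line, in 12 libraries of 300 sorted cells each. NK cells were gated as CD45+, CD3ε-, NK1.1+ and CD8 T cells as CD45+, CD3ε+, CD8a+ from tumours taken 8 to 10 days after injection into both flanks, with no further treatment. Wild-type (WT) mice were C57BL/6N. Mice labelled KO carried the Tyk2 tm1Biat knockout, which removes the Janus kinase TYK2, and mice labelled KE carried a Tyk2 allele with the exchange K923E, which leaves a TYK2 protein without kinase activity. Both alleles are carried by the whole host, and the injected tumour cells were the same line in all groups. The mice were matched for sex and age and were 6 to 12 weeks old. Each of the 6 combinations of cell type and genotype had 2 libraries. Whether 2 libraries of a group came from separate mice, or NK and CD8 libraries from the same mice, is not stated in the sources used here. The p-values therefore measure the spread between these libraries.

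Nearly all nucleated cells display class I molecules. The proteasome cuts cytosolic proteins into peptides, the TAP transporter carries them into the endoplasmic reticulum, tapasin (Tapbp) holds empty class I molecules at the transporter, and the loaded heavy chain travels to the surface bound to β2-microglobulin, the product of B2m. CD8 T cells read the displayed peptides, and NK cells are restrained by class I molecules on the cells they meet. Interferons induce most of these genes, and TYK2 relays the signals of type I interferons and of interleukin 12.

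The control regions of the class I genes are shown first, since they carry the interferon, NF-kB and NLRC5-dependent elements for which the family is known. RefSeq promoter windows on GRCm38.p6, of 300 bases with 250 before the gene start, were found for 8 of the 10 genes, all but Tap2 and Nlrc5. In the sequences below, written 5′ to 3′ on the gene's strand, capitals mark matches to letters searched on both strands. These were TTTC and TTTC with 2 bases between (interferon response element) and its shorter form TTTCNNTTC, GG and TCCC with 4 bases between (NF-kB element), TGACG (core of the X2 box) and ATTGG (core of the Y box). The B2m stretch lies at chr2:122147537-122147656 on the plus strand and the H2-K1 stretch at chr17:34000348-34000497 on the minus strand.
B2m: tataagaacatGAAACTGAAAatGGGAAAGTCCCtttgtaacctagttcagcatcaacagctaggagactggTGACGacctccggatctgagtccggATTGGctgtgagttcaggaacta
H2-K1: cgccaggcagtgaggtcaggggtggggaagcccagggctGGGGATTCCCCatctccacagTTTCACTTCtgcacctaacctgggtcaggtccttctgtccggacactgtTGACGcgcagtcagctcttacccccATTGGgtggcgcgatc

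The longer interferon element occurred in 2.98% of all 32851 windows and, among the 8 genes, in B2m. It lay at positions -139 to -130, counted back from the gene start. The shorter form occurred in 6.31% of windows and in H2-K1 and H2-D1. The NF-kB letters were held by 17.6% of windows and by B2m, H2-K1 and H2-D1, where each hit was a pair of overlapping matches on opposite strands. TGACG was held by 17.8% of windows and by 5 of the 8 genes (B2m, H2-K1, H2-D1, Tap1 and Psmb9), and ATTGG by 33.8% and by 6. A GAS element (TTCNNNGAA), the site of STAT dimers, was in 7.02% of windows and in Psmb8. These are matches of letters and no measurement of binding.

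The 2 heavy chain genes carried their interferon and NF-kB elements in the same order and spacing, at different distances from the RefSeq gene start. For H2-D1 that start is 35263094, whereas the GENCODE gene begins at 35262730, so its stretches shown here lie inside the GENCODE gene. The 30 bases that span both elements, shown to let the 2 genes be compared, lie at chr17:34000429-34000458 on the minus strand for H2-K1 and at chr17:35262923-35262952 on the plus strand for H2-D1.
H2-K1: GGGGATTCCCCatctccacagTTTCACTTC
H2-D1: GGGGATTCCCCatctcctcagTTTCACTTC
They were identical at 29 of 30 bases, and over 100 bases with this element 93 were identical. The TGACG matches of the heavy chains, the light chain and Tap1 are shown with their flanks, as the element that these genes of separate function share. They lie at chr17:34000371-34000400 (minus strand), chr17:35262981-35263010, chr2:122147597-122147626 and chr17:34187458-34187487 (plus strand).
H2-K1: tccggacactgtTGACGcgcagtcagctct
H2-D1: ccgggacactgaTGACGcgctggcaggtct
B2m: ctaggagactggTGACGacctccggatctg
Tap1: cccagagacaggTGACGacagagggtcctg
Tap1 and Psmb9 are transcribed head to head, with 226 bases between the starts that RefSeq gives, whereas their GENCODE exons overlap, and their windows shared 275 of 300 bases. The TGACG and ATTGG matches of Psmb9 are therefore those of Tap1, read from the other strand, and each such pair is 1 site.

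Library totals ranged from 10378761 to 14732882 counts, and the 10 genes together took 1.97% to 2.92% of a library. Cd8a was at no more than 4.52 CPM (counts scaled to a total of 1e+06 with TMM factors) in NK libraries and at 2825 to 4086 in CD8 libraries, and the NK receptor gene Ncr1 was at 843 to 2298 in NK and 1.03 to 1.99 in CD8 libraries. Tyk2 itself did not separate the genotypes: WT NK libraries had 60.8 and 68.9 CPM, KO 56.3 and 105, and KE 119 and 82.3, and all CD8 libraries were between 46.7 and 86.1. Its count over the whole gene thus gives no check of the labels, and genotypes stand below as labelled. The NK libraries labelled WT stood apart in markers of myeloid cells, which belong to neither gate. The summed level of 18 such markers was 16008 and 18770 CPM in WT NK libraries, 1358 and 9423 in KO, 1839 and 1865 in KE, and 771 to 1252 in all 6 CD8 libraries. Of these 18, Cd300e had no count in any library, and the macrophage genes Adgre1 and Mrc1 were at 249.6 to 285 and 38.5 to 62.9 CPM in WT NK libraries and at no more than 11.4 and 0.519 CPM elsewhere. Ms4a7 was at 413 to 463 CPM in WT NK libraries and Itgam at 54.3 to 57.7. Adgre1, Mrc1, Ms4a7 and Itgam were named for a small FDR between mutants and WT. Of all 18, 3 were at or under 3 counts in NK KO replicate 1 (9423 CPM), beside 1 and 2 in the WT NK libraries. B cell markers summed to at most 35.1 CPM, with Cd79a and Pax5 at 0 counts and Cd79b at up to 32.5, and tumour epithelial markers to at most 94.8 CPM, with Krt8, Krt19, Krt7 and Cldn4 at 0, Lgals4 at up to 94.7, Cdh1 at up to 49.6 and Epcam at up to 17.1 CPM. In sorted pools like these, less RNA per cell and fewer cells of a kind cannot be told apart.

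Scaled by exon length, the light chain stood highest and the transporter and coactivator genes lowest. In WT NK cells B2m was at 12100 ± 1039 CPM per kb (mean ± SD, n = 2), followed by H2-K1 at 4501 ± 732 and H2-D1 at 3399.8 ± 602. The immunoproteasome genes and tapasin followed, with Psmb8 at 444 ± 32.9, Psmb10 at 309 ± 14.0, Tapbp at 217 ± 22.02 and Psmb9 at 209.7 ± 18.3 CPM per kb. Tap1 was at 88.6 ± 41.0, Nlrc5 at 28.2 ± 6.77 and Tap2 at 26.9 ± 24.4. The libraries of neighbours in this order overlapped for Tapbp and Psmb9 and for Nlrc5 and Tap2. In WT CD8 T cells the order was the same for the first 4 genes, and Psmb9, at 416 ± 144 CPM per kb, came next, with no overlap to Psmb8 or Psmb10. B2m, H2-K1, H2-D1 and Psmb8 held the first 4 places by mean in that order in all 6 groups, although Psmb8 and Psmb10 overlapped in NK KE.

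**Figure D1:**
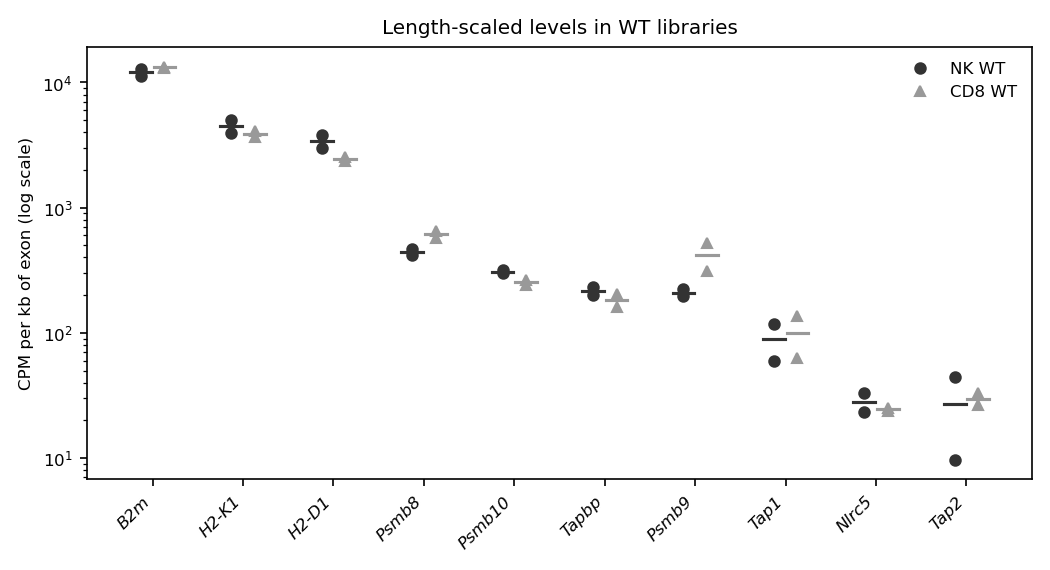
Level of each gene in CPM per kb of exon (log axis) in the 2 WT NK libraries (circles) and the 2 WT CD8 libraries (triangles), with the mean as a bar. B2m, H2-K1 and H2-D1 lie above 2000 CPM per kb, Tap2 and Nlrc5 below 50, and Psmb9 is the gene with the widest gap between the cell types.

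How far these genes depend on TYK2, and on its kinase activity, is the question of the genotype comparisons. In libraries labelled KO or KE the fitted level of the class I chains was 0.748 (B2m), 0.796 (H2-D1) and 0.809 (H2-K1) times that of WT over both cell types, and none of the 10 genes reached the rule for differential expression. That rule asked for an FDR under 0.05 in edgeR's two-sided quasi-likelihood test and a log2 fold change of 1 or more in size. It called 0 of 10 in each of the 11 comparisons, against shares of all tested genes of 0% for KO and 0% for KE among NK cells, 0.0527% for KO and 0.0828% for KE among CD8 cells, 0.0301% in NK mutants together, 0.203% in CD8 mutants together and 0.429% in the mutants of both cell types. DESeq2 also called 0 of 10 in each, where it called 157 to 823 of the 13279 genes. At an FDR under 0.05 whatever the fold, edgeR passed 0 of 10 in each, where 0 to 63 of the 13279 genes passed in the genotype comparisons and 106 between the WT cell types. At an unadjusted p under 0.05, 3 of 10 were lower in the mutants of both cell types (B2m, H2-D1 and H2-K1) and none higher, where 6.88% of all genes tested were lower and 3.04% higher. In NK mutants 4 of 10 were lower at that level (the same 3 and Nlrc5) beside 6.85% of all genes, and in CD8 mutants 1 of 10 (B2m) beside 4.35%. None of the 10 was higher in either, beside 2.18% and 2.37% of all genes. By genotype, 4 of 10 were lower for KO and 3 of 10 for KE among NK cells, beside 3.98% and 3.95%, and 1 of 10 for each among CD8 cells, beside 2.54% and 3.02%. Among the 2151 genes at least as abundant as the scarcest of the 10, the share lower at that level was 8.46% over both cell types, 6.88% in NK mutants and 7.30% in CD8 mutants. Across both cell types 9 of 10 genes had a log2 fold change below 0, where 52% of all genes did, and their median was -0.28 beside -0.03 over all genes. In NK mutants 8 of 10 were below 0 beside 52.3% of all genes, with a median of -0.33 (all genes -0.05), and in CD8 mutants 8 of 10 beside 49.3%, with a median of -0.16 (all genes 0). The myeloid markers of the NK libraries moved with genotype, and with them as a covariate the median over both cell types was -0.10, with H2-D1 at -0.10, H2-K1 at -0.19 and B2m at -0.29 on the log2 scale. Both mutants share the WT libraries, so their values are not independent of each other.

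**Figure D2:**
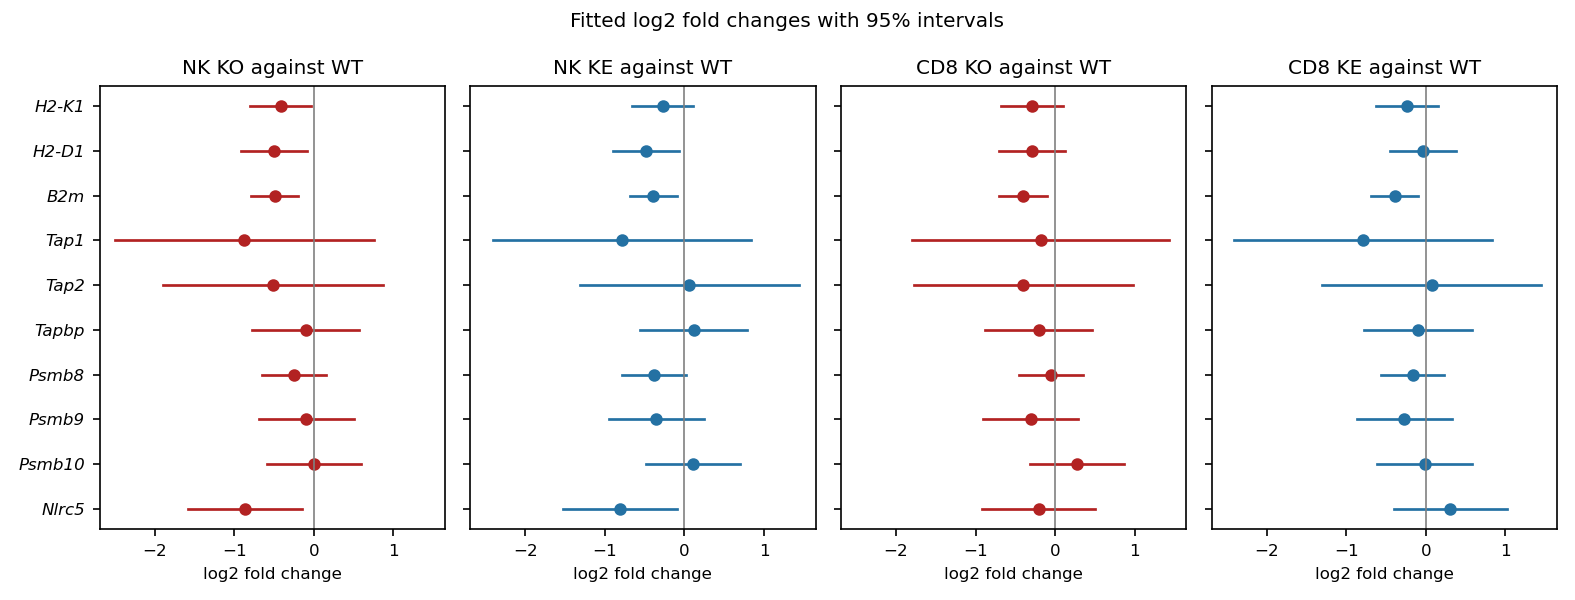
Fitted log2 fold change (points) with 95% interval (lines) of the 10 genes for KO and KE against WT in NK and CD8 T cells. The interval of B2m lies below 0 in all 4 panels, those of Nlrc5 and H2-D1 in both NK panels, that of H2-K1 in NK KO, and the widest intervals are those of Tap1 and Tap2.

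B2m (chromosome 2, 122147686 to 122153083, plus strand, GRCm38) had the smallest FDR of the 10 in the mutants of both cell types. In NK cells it was at 11038 and 9774 CPM in the WT libraries, 8221 and 6596 in KO, with 7957 and 7878 in KE. The CD8 libraries held 11199 and 11509 CPM in WT, 9019 and 8138 in KO, with 7948 and 9382 in KE. Thus each of the 8 mutant libraries lay below both WT libraries of its cell type. In NK cells 4 of 10 genes had that lack of overlap (B2m, H2-D1, Psmb8 and Nlrc5), where 10.8% of all genes did, in CD8 cells 1 of 10 where 7.49% did, and in both cell types 1 of 10 where 1.57% did. Among the 2151 more abundant genes these shares were 10.97%, 11.7% and 3.91%.

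The fitted log2 fold change of B2m in the mutants of both cell types was -0.42 (SE 0.08, 95% CI -0.60 to -0.24), or 0.748 times the WT level, with FDR = 0.0637. It was -0.44 (SE 0.11) in NK mutants with FDR = 0.259 and -0.40 (SE 0.11) in CD8 mutants with FDR = 0.452. In NK mutants the FDR was 0.0257 by DESeq2 and 0.00959 without the filter on low counts, and in NK KO alone 0.0460 and 0.0334. The 2 cell types differed by -0.05 (95% CI -0.41 to 0.32). By genotype, B2m stood at -0.49 (KO) and -0.39 (KE) among NK cells and at -0.40 (KO) and -0.39 (KE) among CD8 cells. Its pooled SD between replicates, 0.13 on the log2 scale, was the smallest of the 10 genes. The pooled FDR fell under 0.05 with DESeq2 (0.00042), with RLE size factors (0.0373), without the filter on low counts (3.23e-05) and without NK KO replicate 1 (0.0344), and under the other alternatives it was 0.0637 to 0.848, highest with the myeloid covariate.

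The heavy chain genes lie in the MHC on chromosome 17, H2-K1 at 33996017 to 34000347 on the minus strand and H2-D1 at 35262730 to 35267499 on the plus strand. For H2-K1, the NK libraries read 8305 and 6592 CPM in WT, 5836 and 5326 in KO, with 5439 and 6864 in KE. The CD8 libraries read 6031 and 6724 in WT, 5548 and 4853 in KO, with 4708 and 6128 in KE. One KE library of each cell type reached into the WT range, and all 4 KO libraries lay below it. Pooled over both cell types the log2 fold change was -0.31 (SE 0.11, 95% CI -0.54 to -0.07, FDR = 0.345), and without the filter on low counts the FDR was 0.0453.

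For H2-D1, WT NK libraries were at 8041 and 6252 CPM, KO at 5655 and 4444, and KE at 4397 and 5819.9, with no overlap between WT and mutants. CD8 libraries were at 4942 and 5306 in WT, 4464 and 3893 in KO, with 4588 and 5407 in KE, where 1 KE library exceeded both WT libraries. The log2 fold change was -0.49 (SE 0.16, FDR = 0.373) in NK mutants, or -0.08 with the myeloid covariate, and -0.17 (SE 0.16, FDR = 0.959) in CD8 mutants. The difference between the cell types was -0.33 (95% CI -0.83 to 0.18, FDR = 0.992). With single libraries left out, the value in NK mutants was -0.68 to -0.30 and the difference -0.48 to -0.10. Without the filter the FDR of H2-D1 was 0.0176 in NK mutants and 0.0328 in the mutants of both cell types. WT NK cells had 1.39 times the H2-D1 level of WT CD8 cells (log2 fold change 0.48, SE 0.19, FDR = 0.416), and H2-K1 differed by 0.22 (95% CI -0.16 to 0.61). With the myeloid markers as a covariate these log2 fold changes were 0.0459 for H2-D1 and 0.00096 for H2-K1. The 2 heavy chains share sequence: of the 50-base windows of their transcripts, 8.79% of H2-K1 and 14.3% of H2-D1 also occur in another gene, chiefly other H2 genes, whereas 0% of B2m do. Reads from such windows were not counted, so the heavy chains are undercounted.

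**Figure D3:**
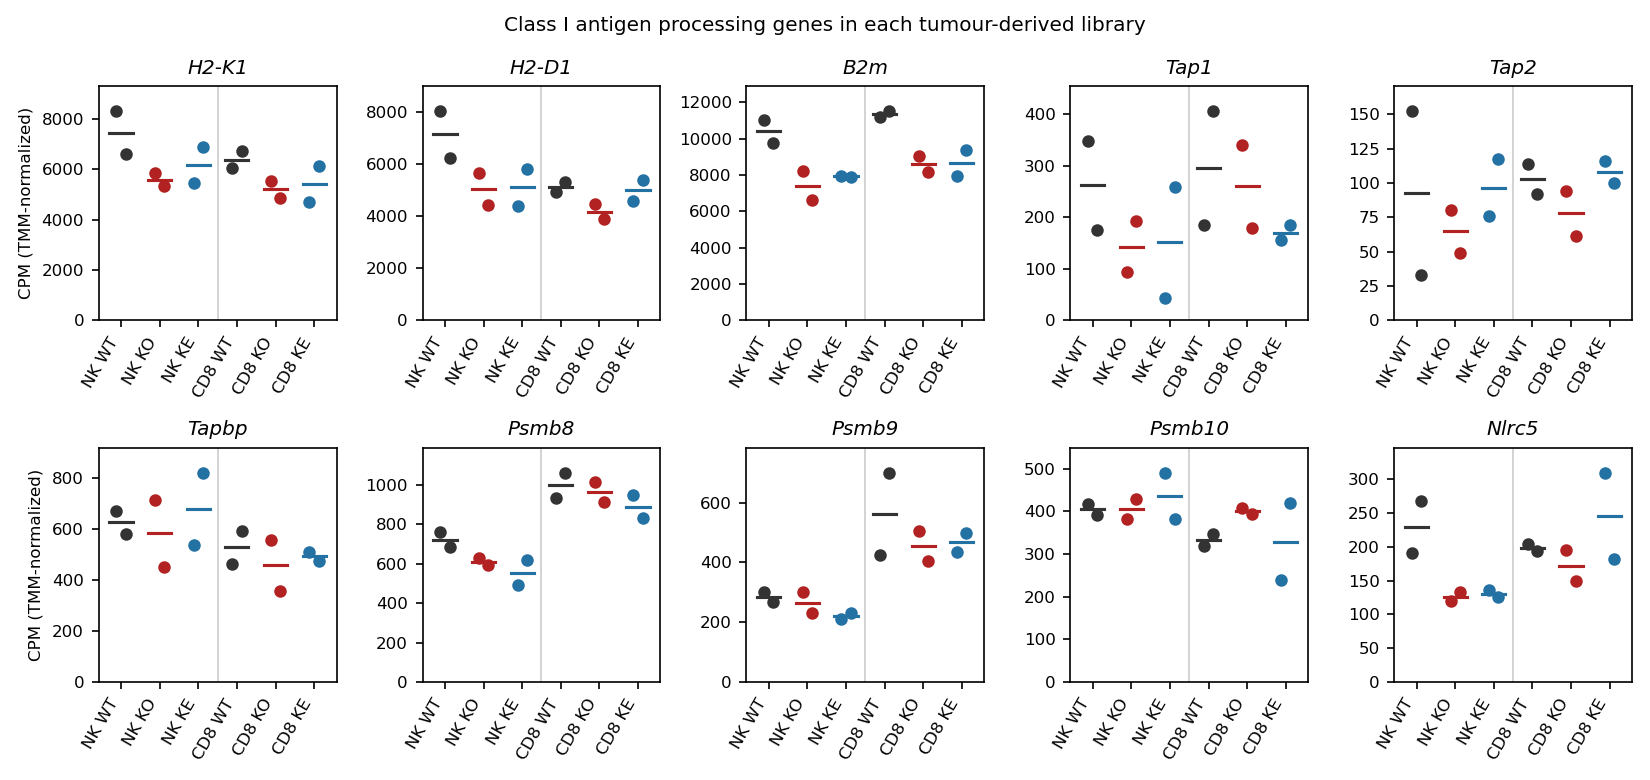
CPM of each of the 10 genes in all 12 libraries (points) with the mean of each group (bars), NK groups left and CD8 groups right, each axis from 0. All mutant points of B2m lie under the WT points of the same cell type, while the WT points of Tap1 and Tap2 span most of the range.

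Myeloid marker counts moved with genotype among the NK libraries. The WT NK libraries had the highest myeloid sums and, among NK libraries, the highest B2m and H2-D1. In CD8 libraries, where the myeloid sums were 996 to 1220 CPM in WT, 771 to 843 in KO and 1017 to 1252 in KE, B2m was at 0.759 times the WT level in the mutants. With the mean log2 CPM of the myeloid markers as a covariate, the log2 fold change of H2-D1 in NK mutants went from -0.49 to -0.08, that of H2-K1 from -0.35 to -0.13 and that of B2m from -0.44 to -0.21, while Nlrc5 was at -0.83 without and -0.86 with it. Tapbp went from 0.01 to 0.80, Tap2 from -0.23 to 0.68 and Tap1 from -0.83 to -0.68. In CD8 mutants B2m was at -0.37 with the covariate. The genes of the MHC class II pathway, prominent in antigen-presenting myeloid cells, summed to 6325 and 11023 CPM in WT NK libraries, 651 and 7318 in KO, with 323 and 754 in KE, beside 405 to 1010 in CD8 libraries. The myeloid covariate was at 7.68 and 7.50 in WT NK libraries, 5.53 and 0.25 in KO, and 0.76 and 3.33 in KE. With a mean per group in the model, its slope rests on differences between the 2 libraries of a group. Genotype and myeloid markers thus cannot be told apart in the NK libraries. The part of other cells in the NK differences beyond these fits was not tested.

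**Figure D4:**
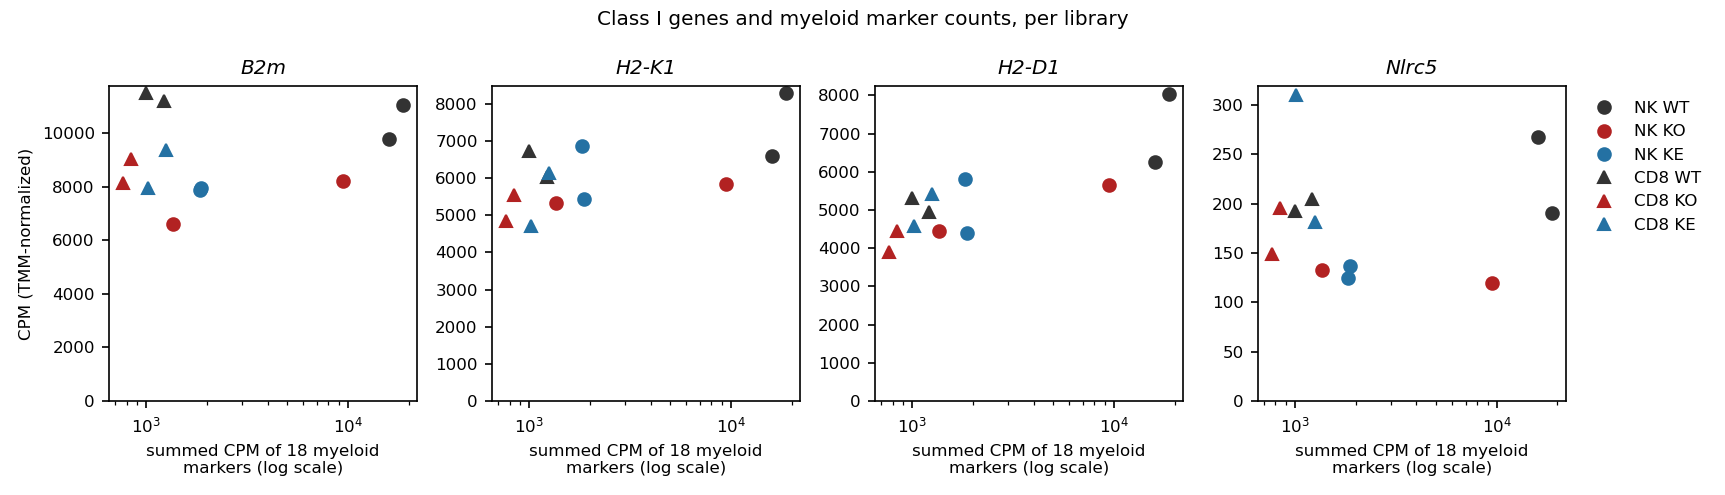
CPM of B2m, H2-K1, H2-D1 and Nlrc5 (axes from 0) against the summed CPM of 18 myeloid markers (log axis) in each library, NK as circles and CD8 as triangles, coloured by genotype. The WT NK libraries lie far right at 16008 and 18770, and in the CD8 libraries, all between 771 and 1252, the WT points of B2m lie above the mutants.

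Nlrc5 (chromosome 8, 94434356 to 94527272), which acts in the nucleus on promoters of class I genes, had, with Tap1, the largest fitted difference in NK mutants. With single libraries left out, that difference was -1.06 to -0.58 for Nlrc5 and -1.73 to -0.26 for Tap1. For Nlrc5, the NK libraries had 190.0 and 268 CPM in WT, 119.7 and 133 in KO, with 136 and 125 in KE. All 4 mutant libraries thus lay below both WT libraries. The CD8 libraries had 204 and 193 in WT, 195 and 149 in KO, with 309.5 and 181 in KE, which overlapped. Its log2 fold change was -0.83 (SE 0.27, 95% CI -1.43 to -0.24, FDR = 0.378) in NK mutants and 0.05 (SE 0.28, 95% CI -0.57 to 0.67, FDR = 0.999) in CD8 mutants. The difference between the cell types was -0.88 (95% CI -1.76 to -0.01, FDR = 0.870). Nlrc5 was the 1 gene of the 10 with an unadjusted p under 0.05 in that comparison, where 3.28% of all genes were lower and 2.42% higher at that level, and 0 of 10 were called beside 0.0151%. In NK cells KO stood at -0.86 and KE at -0.81.

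The transporter genes were the most variable members. Tap1 (chromosome 17, 34187553 to 34197225) forms the peptide transporter with Tap2 (34203527 to 34216321). The NK libraries of Tap1 had 347 and 176 CPM in WT, 93.8 and 192 in KO, with 43.8 and 259 in KE. The CD8 libraries had 185 and 406 in WT, 341 and 179 in KO, with 157 and 184 in KE. WT and mutant libraries overlapped in both cell types, and the pooled SD between replicates was 0.95 on the log2 scale, the largest of the 10. The log2 fold change in the mutants of both cell types was -0.66 (95% CI -1.62 to 0.31, FDR = 0.734). Tap2 ranged from 33.3 CPM in WT replicate 2 to 152 in WT replicate 1 among NK libraries, and from 61.5 to 116 among CD8 libraries. Its log2 fold change was -0.20 (95% CI -1.03 to 0.64), and it was 0.53 without NK WT replicate 1 and -0.58 without NK WT replicate 2, the highest and lowest values when single libraries were left out. Differences between genotypes in either transporter gene were not detectable with this spread.

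Tapbp, the gene of the bridging chaperone tapasin (chromosome 17, 33915899 to 33929292), did not separate the genotypes either. The NK libraries had 673 and 583 CPM in WT, 717 and 453 in KO, with 539 and 823 in KE, and the CD8 libraries 463 and 594, 558 and 357, and 512 and 474. The log2 fold change over both cell types was -0.07 (SE 0.19, 95% CI -0.48 to 0.34). Exons of Tap1 and Psmb9 share 212 bases on opposite strands, and Tapbp shares 682 bases with Gm19412. Tap2 shares 543 bases with its antisense neighbours and Psmb8 186 with Gm20496. Whether counting used the strand is not given in the sources used here, so reads from those bases cannot be told apart.

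Among the inducible proteasome subunits, Psmb8 and Psmb9 separated the cell types in every library. Psmb8 (LMP7) and Psmb9 (LMP2) lie beside the Tap genes on chromosome 17, at 34197721 to 34201454 and 34181987 to 34187764, and Psmb10 (MECL-1) on chromosome 8, at 105935735 to 105938444. Psmb8 was at 761 and 685 CPM in WT NK libraries, 627 and 593 in KO, with 492 and 618 in KE. In CD8 libraries it was at 934 and 1063 in WT, 1015 and 912 in KO, with 948 and 830.3 in KE. All 4 NK mutant libraries were below both WT libraries, and all 6 NK libraries were below all 6 CD8 libraries. Among NK libraries those of WT also had the highest myeloid marker sums, so genotype and these markers cannot be told apart there.

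Psmb9 had 301 and 266 CPM in WT NK libraries, 299.8 and 230.5 in KO, with 212 and 232 in KE. CD8 libraries had 425 and 700.4 in WT, 506 and 404 in KO, with 434 and 500.0 in KE, again all above the NK libraries. These 2 of 10 genes had all NK libraries below all CD8 libraries, where 2.83% of all genes did, and 0 of 10 had the reverse, where 2.03% did. In WT cells the log2 fold change of NK against CD8 was -0.99 for Psmb9 (SE 0.27, 95% CI -1.59 to -0.39, FDR = 0.171) and -0.47 for Psmb8 (SE 0.18, 95% CI -0.87 to -0.07, FDR = 0.416). The WT libraries also differed in myeloid marker sums, at 16008 and 18770 CPM in NK and 996 and 1220 in CD8 cells. Without CD8 WT replicate 2 the value of Psmb9 was -0.59, and without CD8 WT replicate 1 it was -1.30. By DESeq2 the FDR of Psmb9 was 0.0267, and its log2 fold change of -0.99 stayed under the size that the rule required. In that comparison 0 of 10 genes were called beside 0.776% of all genes, and 2 of 10 were lower and 1 of 10 higher at an unadjusted p under 0.05 beside 4.78% and 5.46%.

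Psmb10 did not separate the genotypes in NK cells. It was at 418 and 392 CPM in WT NK libraries, 381 and 430.0 in KO, with 491 and 382 in KE, and at 319 and 347 in CD8 WT, 409 and 394 in KO, with 239 and 419 in KE. Groups overlapped within each cell type apart from CD8 KO, where both libraries were above WT. It was the 1 gene of the 10 with a pooled log2 fold change above 0, at 0.09 (SE 0.16, 95% CI -0.27 to 0.45). That sign was not stable: the value was -0.02 without CD8 KE replicate 2 and -0.10 with the myeloid covariate, under which Tap2 (0.30) and Tapbp (0.36) were above 0. The mutant changes of the other subunits were -0.21 (95% CI -0.45 to 0.03) for Psmb8 and -0.26 (95% CI -0.62 to 0.10) for Psmb9. With single libraries left out, Psmb9 was at -0.41 to -0.06, and in CD8 mutants alone at -0.60 to 0.12.

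KO and KE were then set against each other to ask whether losing the protein and losing its kinase activity differ for these genes. None of the 10 genes had an unadjusted p under 0.05 in either cell type, where 2.04% of all genes were lower and 1.75% higher in NK KO, and 1.68% lower and 1.94% higher in CD8 KO. By the rule 0 of 10 were called in each, as were 0% of all genes, and DESeq2 called 0 of 10 where it called 205 of all genes in NK and 157 in CD8 cells. KO minus KE was -0.10 for B2m in NK cells (95% CI -0.39 to 0.20) and -0.01 in CD8 cells (95% CI -0.31 to 0.28). For H2-K1 it was -0.14 (95% CI -0.53 to 0.25) and -0.06 (95% CI -0.45 to 0.33), and for H2-D1 -0.02 (95% CI -0.43 to 0.40) and -0.26 (95% CI -0.67 to 0.15). Nlrc5 was at -0.05 in NK cells (95% CI -0.76 to 0.66) and -0.51 in CD8 cells (95% CI -1.22 to 0.20). With single libraries left out, its CD8 value was -0.85 to -0.07. The interval of Tap1 reached from -1.70 to 1.53 in NK cells and from -1.01 to 2.23 in CD8 cells.

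The nonclassical class I genes, close relatives of H2-K1 and H2-D1 that need the same light chain, were mostly below 0 in the mutants, and none was called. Of 17 such genes 12 were tested, 6 were lower at an unadjusted p under 0.05 and 10 were below 0 in the mutants of both cell types, where 6.88% and 52% of all genes were. Their median log2 fold change was -0.68 beside -0.03 over all genes. The high myeloid marker sums of the WT NK libraries stand beside these values too, and their part was not tested. H2-T23 (Qa-1, the ligand of the NKG2A receptor) had 1028 and 918 CPM in WT NK libraries, 632 and 542 in KO, with 542 and 669.9 in KE, and 1041 and 1162 in CD8 WT, 1045 and 602 in KO, with 629.9 and 688 in KE. H2-T22, a ligand of some γδ T cell receptors, had 261 and 268, 195 and 153, and 166 and 155 CPM in NK WT, KO and KE, and 437 and 408, 324 and 205, and 184 and 268 in CD8 cells. Pooled log2 fold changes were -0.64 (SE 0.15, FDR = 0.142) for H2-T23, -0.73 (SE 0.17, FDR = 0.153) for H2-T22, -0.56 (SE 0.14, FDR = 0.186) for H2-Q6 and -0.51 (SE 0.16, FDR = 0.314) for H2-Q7. For 3 of the 12 (H2-Q6, H2-Q7 and H2-T22) every mutant library lay below both WT libraries of its cell type, where 1.57% of all genes did. Of the 50-base windows of these transcripts 29.8% (H2-T23) to 44.7% (H2-T22) also occur in other genes, so their counts are less certain than those of B2m.

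All 12 genes that load and trim peptides were tested, and 9 were below 0 in the mutants of both cell types beside 52% of all genes. Of these 12, 0 passed an unadjusted p of 0.05, beside 6.88% lower and 3.04% higher over all genes, and the median was -0.14 (all genes -0.03). The chaperone Canx was at 0.29 (SE 0.15, FDR = 0.617), the endoplasmic reticulum chaperone Hspa5 at -0.27 (SE 0.17), the tapasin relative Tapbpl at -0.50 (SE 0.34) and the aminopeptidase Npepps at -0.63 (SE 0.49). The 14 subunits of the constitutive 20S proteasome had a median of 0.05, with Psma3 at 0.23 (SE 0.19), Psmb7 at 0.20 (SE 0.20), Psma7 at 0.15 (SE 0.17) and Psma6 at -0.12 (SE 0.16). The 17 subunits of the 19S regulator had a median of -0.08, with Psmd8 at 0.25, Psmc5 at 0.28, Psmc2 at 0.19 and Psmd2 at -0.26. The 9 genes of proteasome activators and assembly factors had a median of -0.10, with Psme1 at -0.19, Psmg4 at 0.56, Pomp at -0.16 and Psme4 at -0.51. In these 3 lists 0 genes were called in the mutants of both cell types by edgeR, and 0 had an unadjusted p under 0.05. Between WT NK and WT CD8 cells, 13 of the 14 constitutive subunits were below 0, with a median of -0.39 (all genes 0.01), and 4 of the 14 were lower at an unadjusted p under 0.05 beside 4.78% of all genes.

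**Figure D5:**
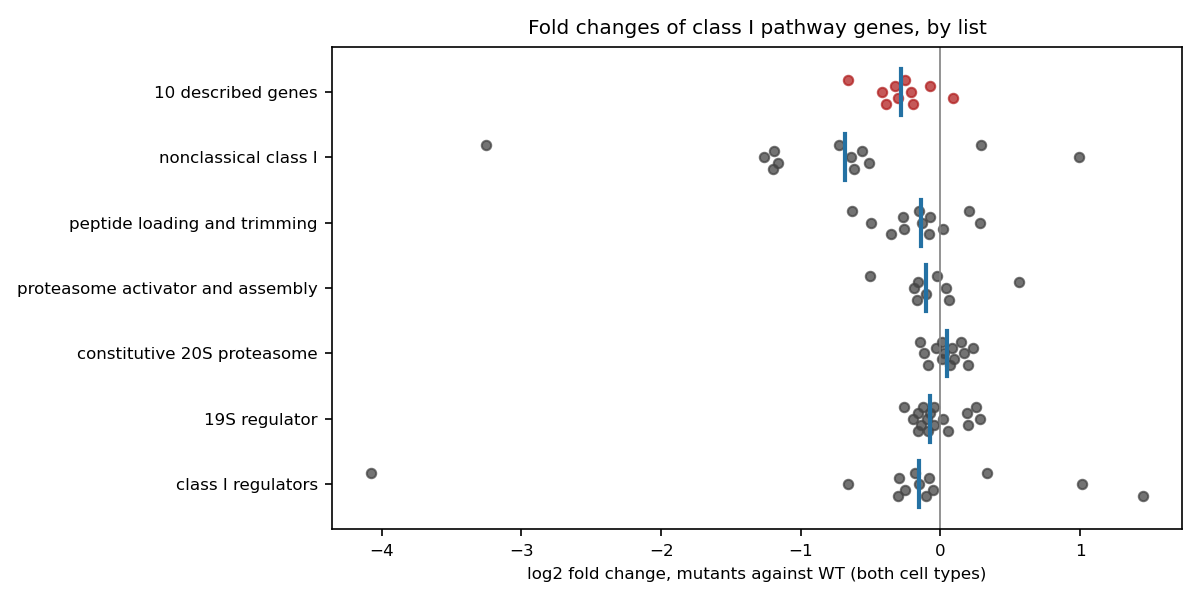
Fitted log2 fold change of each tested gene in the mutants of both cell types against WT, by list, with the median of each list as a vertical bar. The 10 described genes centre on -0.28 and the nonclassical class I genes on -0.68, while the constitutive 20S proteasome centres on 0.05.

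Of 13 transcription factors and cofactors that act on class I promoters, 1 was higher and 1 lower at an unadjusted p under 0.05 in the mutants of both cell types, beside 3.04% and 6.88% of all genes, and 0 were called. Nfkb1, an NF-kB subunit, had a log2 fold change of 1.01 (SE 0.41, FDR = 0.436), and Rela, its partner, of -0.31 (SE 0.28). Ciita, the class II relative of Nlrc5, was at 28.97 and 26.4 CPM in WT NK libraries, 25.03 and 0.0739 in KO, with 6.91 and 9.74 in KE, with 3 of the CD8 libraries at 0. Nfya, a subunit of the Y box factor, was at 0.848 to 12.04 CPM in NK libraries and 1.67 to 40.1 in CD8 libraries. Irf8, named after its values were seen, was the 1 gene of the list called in any of the comparisons described, with a WT NK level 9.30 times that of WT CD8 cells (FDR = 0.00379), in libraries with myeloid sums of 16008 and 18770 CPM against 996 and 1220. Of the 10 class II genes 1, the protease gene Ctss, was called lower in the mutants of both cell types (log2 fold change -1.89, SE 0.31, FDR = 0.0330), beside 0.429% of all genes. With the myeloid covariate 0 of 13279 genes were called, Ctss included. Ctss, which macrophages express, was at 2840.2 and 3426 CPM in WT NK libraries and at 168 to 888 in all other libraries, and its mutant effect was -3.19 in NK and -0.59 in CD8 cells. H2-DMa was at -0.48 (SE 0.30), H2-Ob at -3.30 (SE 2.19) and H2-Eb1 at -1.32 (SE 0.88). Of 17 myeloid markers tested, 16 were below 0 in NK mutants (all genes 52.3%) with a median of -4.64, and 8 in CD8 mutants (all genes 49.3%) with a median of 0.16. None of the 17 was called in either by edgeR, where 13 and 3 were lower at an unadjusted p under 0.05 beside 6.85% and 4.35% of all genes.

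Across the 12 libraries the 2 tightest pairs among the 10 genes were Psmb8 with Psmb9 (Pearson's r = 0.928 of log2 CPM) and H2-K1 with H2-D1 (r = 0.910), and Psmb10 with Nlrc5 was the lowest pair (r = -0.63). The non-member genes whose pattern came closest to the mean standardized level of the 10 were H2-Q7 (r = 0.897), Commd4 (0.887), Tmub2 (0.875), Pfkfb3 (0.874) and Ccdc126 (0.869). These are descriptions over 12 libraries that share cell type, genotype and depth, and Ccdc126 was at a mean of only 4.98 CPM.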

How the data were processed

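The authors trimmed single-end reads of 50 bases from Smart-seq2 libraries with Trimmomatic 0.32, aligned them to mm10 (GRCm38) with STAR 2.7.1 and counted uniquely aligned reads in exons of Ensembl release 93 with summarizeOverlaps (GenomicAlignments 1.6.3). The deposited values are these raw counts, neither normalized nor pooled. Smart-seq2 amplifies by PCR without molecular identifiers, so depth overstates the number of molecules, and multi-mapping reads of similar H2 genes are missing.

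Groups and replicate numbers came from the sample titles. Symbols, positions and exon lengths came from GENCODE vM21 (GRCm38), promoters from RefSeq (GRCm38.p6). Counts were fitted with edgeR 4.0.16 (R 4.3.3): TMM factors, a minimum of 10 for the mean normalized count (13279 genes), 1 model with a mean per group over 12 libraries, robust dispersion and the two-sided quasi-likelihood F-test, with Benjamini-Hochberg adjustment over all genes tested (FDR). A standard error is the size of the log2 fold change over the root of its F. Pooled mutant effects average KO and KE. A count of 3 was the floor, 0.218 to 0.276 CPM. The study's methods used DESeq2, which was run here (1.42.0) as an alternative. Others were RLE factors, library totals, no filter, filterByExpr, non-robust dispersion, 1 cell type, a replicate block, a myeloid covariate and leaving out each library. An FDR under 0.05 at any fold was added after the data were seen. The code was tested on simulated counts.

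The genes described, and the lists, were chosen with earlier results of these data known. Named were all 10 genes, the sort markers, up to 4 genes per list with the smallest FDR in the pooled mutant comparison, marker genes at 0, and the 5 other genes most correlated with the 10.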

Additional observations from a re-analysis of the deposited data

How the results depend on the processing

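By the rule with its fold limit, 0 of the 10 genes were called in each of the 11 comparisons under every alternative, a limit that the fitted values of the class I chains did not reach. At an FDR under 0.05 whatever the fold, up to 3 passed (B2m, H2-K1 and H2-D1, without the filter, where 460 of 23707 genes passed). The median log2 fold change of the 10 genes moved beyond the spread between replicates in 5 cases. With the myeloid covariate it was -0.17 instead of -0.45 in NK KO, -0.0942 instead of -0.37 in NK KE, and -0.35 instead of 0.04 in WT NK against WT CD8. Without NK WT replicate 1 it was -0.21 in NK KO (range over single libraries left out -0.59 to -0.21), and without NK WT replicate 2 it was 0.26 in WT NK against WT CD8 (range -0.12 to 0.26). The cause was not tested. The same ranges were -0.53 to -0.20 in NK mutants, -0.32 to -0.002 in CD8 mutants and -0.37 to -0.23 in both. With the myeloid covariate the medians were -0.11 in NK mutants, -0.10 in CD8 mutants and -0.10 in both, instead of -0.33, -0.16 and -0.28. Single-gene values were counted as the same in 1608 cases and as moved beyond the replicate spread in 72. A gene with an unadjusted p under 0.05 in the main fit counted as the same unless its sign or call changed. The 1608 cases thus include moves beyond the spread, such as that of H2-D1 in NK mutants with the myeloid covariate. Over all genes, calls in the mutants of both cell types numbered 57 with edgeR, 452 with DESeq2 and 402 without the filter, and 4, 448 and 374 in NK mutants. With the myeloid covariate both numbered 0. In CD8 mutants the calls numbered 27 with edgeR, 326 with DESeq2, 6 with the replicate block and 11 with the myeloid covariate. Between WT NK and WT CD8 cells these numbers were 103, 823, 51 and 30. Leaving out single libraries gave 13 (without CD8 WT replicate 1) to 87 (without NK KO replicate 1) in both cell types, and 0 to 25 (without NK KO replicate 1) in NK mutants. Replicate numbers showed no pairing of the libraries: the correlation of replicate differences between groups was -0.03 to 0.04 over all tested genes. The median SD between replicates was 1.29 on the log2 scale, so this correlation cannot exclude pairing. With the replicate block the calls numbered 27 in both cell types and 0 in NK mutants, and the FDR of B2m was 0.176. The spread between replicates was largest in Tap1 and Tap2.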
